A study of Mus musculus with 405 samples.

Results

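The cytoplasmic ribosomal protein genes encode the proteins of the ribosome that works in the cytosol. They were chosen by symbol alone, as rows whose name begins with Rpl or Rps and a digit or is Rplp0, Rplp1 or Rplp2, without pseudogene symbols (those with "-ps") and without the Rps6k kinases. This gave 86 of 23893 genes in a count table for pyraclostrobin and 73 of 13304 genes in a table of an expression screen, and every member of the second table was also in the first. Of the 86, 76 were core subunits (30 of the small and 46 of the large subunit) and 10 were paralogues or carried a like name, among them Rps19bp1, which is a binding protein and no subunit. The study exposed primary cortical cultures from hybrid mouse embryos (C57BL/6J dams and CAST/EiJ males, embryonic day 15 by the labels) to a chemical or to vehicle, the solvent DMSO, for 24 h on day 7 in vitro, and sequenced polyadenylated RNA. All groups shared the strain cross and a mitotic inhibitor in the feeding medium from early in culture. The count table held 4 libraries with pyraclostrobin at 0.1 μM and 4 with vehicle. The screen held 49 libraries with vehicle, 32 with topotecan at 0.3 μM and 312 with other chemicals. In all it covered 297 chemicals, and 282 of these had 1 library.

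Each ribosome carries 1 copy of nearly all of these proteins, with the acidic stalk proteins as the known exception, so the cell makes them in matched amounts. Their mRNAs are among the most heavily translated of a growing cell, and most begin with a run of pyrimidines led by C, the 5′ terminal oligopyrimidine (TOP) tract, through which mTOR controls their translation rather than their level. In neurons they supply the ribosomes of soma, dendrites and axons. Nearly all of them have processed pseudogenes, intronless copies of the mRNA in the genome, so that short reads from a gene and from its copies can be hard to tell apart.

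The start sites show the TOP tract in some members and not in others. RefSeq start windows on GRCm38.p6 were found for 65 of the 86 members, and 30 of them (46.2%) had a run of at least 5 C or T bases, read from a C within 5 bases of an annotated start whatever base came before it, against 21.2% of all 27025 genes with a window. A match is a description of the letters at an annotated start, and no match says only that they are not in this window. The 30 bases from 10 before the start onward are shown for the S6 kinase substrate Rps6, for Rps27 and its retrocopy Rps27rt, for Rpl38 and the paralogue Rpl22l1, and for the paralogue Rpl7l1, which had no such run, with the run from the C nearest the start in capitals.
Rps6 (chr4:86857348-86857377, minus strand): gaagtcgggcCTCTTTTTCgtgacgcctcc
Rps27 (chr3:90213629-90213658, minus strand): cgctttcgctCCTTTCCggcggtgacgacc
Rps27rt (chr9:114982720-114982749, minus strand): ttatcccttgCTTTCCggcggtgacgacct
Rpl38 (chr11:114668570-114668599, plus strand): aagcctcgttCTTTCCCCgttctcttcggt
Rpl22l1 (chr3:28805498-28805527, plus strand): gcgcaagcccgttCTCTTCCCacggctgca
Rpl7l1 (chr17:46782637-46782666, minus strand): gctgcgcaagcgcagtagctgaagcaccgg
After the tract, Rps27 and Rps27rt read alike, and their values in the screen were the closest of all member pairs (Spearman's rho = 0.69 over 312 libraries of chemicals other than topotecan, a description). Reads from either of them could have been counted for the other.

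Copies elsewhere in the genome bear on every count that follows. For 82 members with a coding sequence in the GENCODE annotation of NCBIM37 (mm9), each stretch of 50 coding bases, the length of 1 read of a pair, was searched in the whole genome outside the gene. The median share of stretches with an exact copy elsewhere was 88.3%, every stretch was copied in 27 members and none in 5. The longest annotated coding sequence of each gene was used. Those of Rpl24 (3153 bases) and Rpl13a (1272 bases) were the longest of all members and may not be of the ribosomal protein alone. Their shares of 0% and 18.1% are therefore uncertain, and Rpl24 is among the 5. Among 76 genes of mitochondrial ribosomal proteins the median share was 0%. The middle stretch of the coding sequence is shown for the most abundant member and for members that the comparisons turn on, with its exons joined and in lower case since no base is marked.
Rpl8 (gene at chr15:76734501-76736748, plus strand, coding bases 363 to 412): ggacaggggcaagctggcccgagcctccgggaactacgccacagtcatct
Rpl5 (gene at chr5:108329521-108338024, plus strand, coding bases 423 to 472): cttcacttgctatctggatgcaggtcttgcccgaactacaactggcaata
Rpl15 (gene at chr14:19100337-19103905, minus strand, coding bases 283 to 332): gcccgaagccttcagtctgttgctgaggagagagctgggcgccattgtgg
Rpl21 (gene at chr5:147644466-147648608, plus strand, coding bases 217 to 266): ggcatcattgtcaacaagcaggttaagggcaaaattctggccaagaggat
The stretch of Rpl8 had 0 further copies in the genome, that of Rpl5 had 4, that of Rpl15 had 8 and that of Rpl21 had 25. How the counting treated a read with several places is not given in the sources used here. Values of members whose stretches are mostly copied, Rpl5, Rpl15 and Rps6 among them at 100%, are therefore uncertain as to their source.

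The members took a small share of the reads. Library totals were 2409623 to 7833440 counts, and the 86 members together held 0.25% to 0.294% of the counts in the pyraclostrobin libraries and 0.154% to 0.306% in the vehicle libraries. For 34 members the mean over the 8 libraries was below 10 counts, and 53 members passed the filter of at least 10 counts in at least 4 libraries, 48 of them core subunits. The testis paralogues Rpl10l and Rpl39l had 0 counts in every library, and the muscle paralogue Rpl3l had 1 count in 1 vehicle library. Per kilobase of transcript, mean levels over the 8 libraries were highest for Rpl8 at 522 CPM per kb, Rpl22 at 399 and Rpl15 at 225 CPM per kb, and Rplp1 was at 174 CPM per kb (CPM, read counts scaled to the effective size of the library). Rpl3, which lies near the peptidyl transferase centre, and Rps6 stood at 3.15 and 8.57 CPM per kb on the same scale. Among 11 members with under 25% copied stretches the median level was 34.8 CPM per kb, and among 39 members with at least 90% it was 3.64 CPM per kb. The 11 include Rpl24 and Rpl13a, whose coding sequences are uncertain, and the median of 34.8 is the value of Rpl13a itself. Across the 82 members the rank correlation of the level per kb with the share of copied stretches was −0.33, which describes genes and not samples.

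Pyraclostrobin, a fungicide of the strobilurin class that blocks complex III of the respiratory chain, was set against vehicle to ask how it changes the transcriptome of these cultures. A comparison of the 4 libraries of each group called 1 of the 53 tested members higher and 0 lower at an adjusted p of 0.01 (edgeR's quasi-likelihood test, Benjamini-Hochberg over 12324 genes), against a background of 12.1% of all tested genes higher and 9.22% lower. At an unadjusted p under 0.05 there were 15 members, and DESeq2 called 1 higher and 1 lower. The share of all genes was not taken for either count, so they cannot be set against a background. Most estimates nonetheless lay above 0, 42 of 53, with a median log2 fold change of 0.41 against −0.002 over all genes tested. At an adjusted p of 0.05, Rpl22, Rpl7l1 and Rps2 were higher and Rpl15 lower (background 18.5% and 16.4%). The spread among the vehicle libraries was wide for these genes, and 1 vehicle library stood apart from the 3 others.

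The 4 libraries of each group are lettered A to D in the order of the number in their names, and libraries with the same letter share that number. In vehicle library A the members were at 1.94 times the mean of the 3 other vehicle libraries (median over the 53 tested), and it was the highest vehicle library for 50 of the 53. The share of its counts in the members was 0.306%, against 0.154% to 0.168% in the other 3. Its log2 values over all tested genes correlated at 0.928 to 0.937 with those of the other vehicle libraries, each of which reached 0.984 to 0.992 with the vehicle library closest to it. Pyraclostrobin library A had the highest share of that group, 0.294%, and no such gap. Without vehicle library A, 24 of 49 tested members were higher and 0 lower at the same threshold (background 17.6% of 12189 genes higher and 15.7% lower), with a median log2 fold change of 0.73 against 0.02 over all genes tested. Without both libraries A, 25 were higher and 1 lower (background 19.8% and 20%), and the 25 included all 24. The count of members called therefore turned on 1 vehicle library, and the fit without it is given beside the full one for the genes described below. Library A was singled out with the members' own values in view. Leaving out the highest vehicle library raises fold changes and narrows their spread in advance. The p-values of that fit, and its counts beside the background, are therefore descriptions and not independent tests.

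**Figure D1:**
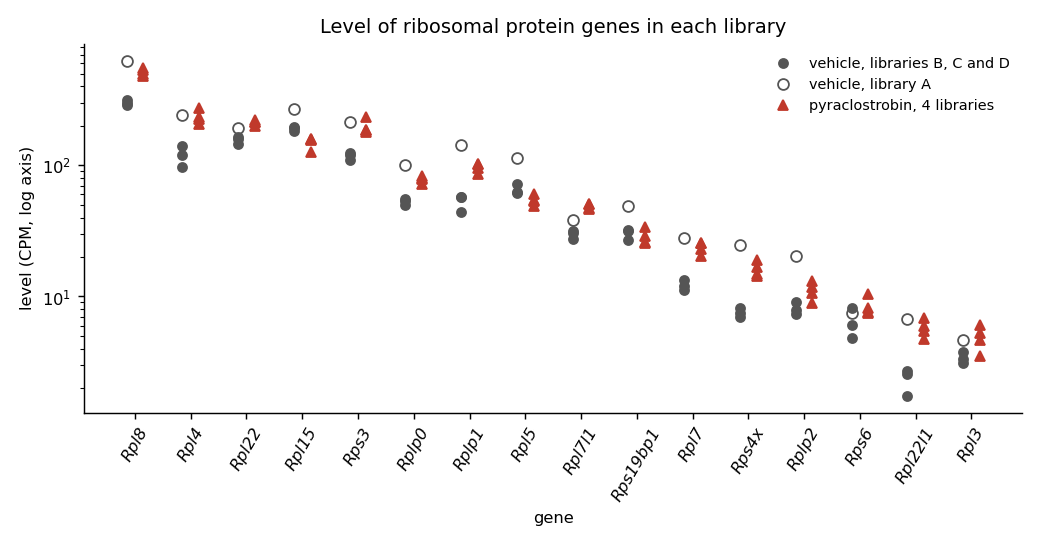
Level (CPM, log axis) of 16 ribosomal protein genes in each library of the count table. Filled circles are the vehicle libraries B, C and D, the open circle is vehicle library A and triangles are the 4 pyraclostrobin libraries. For Rpl8 the pyraclostrobin libraries lie between 481 and 552 CPM, above 3 vehicle libraries and below vehicle library A at 628 CPM.

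Rpl8, of the large subunit and the most abundant member, was at 538, 495, 552 and 481 CPM with pyraclostrobin and at 628, 290, 317 and 298 CPM with vehicle (libraries A, B, C and D in this order, here and below). The treated libraries were above 3 vehicle libraries and below the fourth. The log2 fold change was 0.44 ± 0.23 (SE, adjusted p = 0.162 by edgeR), and 0.78 ± 0.09 without vehicle library A (adjusted p = 4.3e-05).

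Rpl4, which lines the exit tunnel of the nascent chain, was at 274, 232, 224 and 206 CPM with pyraclostrobin and at 242, 140, 121 and 96.9 CPM with vehicle, with a log2 fold change of 0.65 ± 0.24 (SE, adjusted p = 0.057 by edgeR) and of 0.98 ± 0.14 without vehicle library A (adjusted p = 0.00018). Rps3, at the mRNA entry of the small subunit, showed the same order, with 181 to 234 CPM under pyraclostrobin and 110 to 125 CPM in 3 vehicle libraries beside 214 CPM in the fourth. Its log2 fold change was 0.47 ± 0.20 (SE, adjusted p = 0.093 by edgeR) and 0.74 ± 0.11 without vehicle library A (adjusted p = 0.00033).

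Rpl7l1, a paralogue of Rpl7 with a role in ribosome assembly, was the only member called in the comparison of 4 against 4. It was at 47.6, 50.5, 46.5 and 50.3 CPM with pyraclostrobin and at 38.4, 31.4, 30.3 and 27.2 CPM with vehicle. The groups did not overlap, and vehicle library A was again the highest of its group. The log2 fold change was 0.63 ± 0.14 (SE, adjusted p = 0.0057 by edgeR), and the call was lost when any library other than vehicle library A was left out, at log2 fold changes of 0.55 to 0.62. Without vehicle library A it was 0.72 ± 0.12 (adjusted p = 0.00045 by edgeR). Without overlap between the 2 groups of 4 were 3 tested members higher and 3 lower, against 18.1% of all tested genes higher and 17% lower.

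Of the stalk proteins, which recruit elongation factors to the ribosome, Rplp0 was at 71.9 to 83.1 CPM with pyraclostrobin and at 99.8, 49.7, 53.7 and 55.0 CPM with vehicle, and Rplp1 at 85.7 to 103 CPM against 144, 57.4, 57.1 and 44.3 CPM. Neither passed the test in the full set (log2 fold changes 0.30 and 0.38, adjusted p = 0.303 and 0.386 by edgeR), and both did without vehicle library A (0.57 and 0.88, adjusted p = 0.00089 and 0.00018). Rplp2 lay at 8.97 to 13.1 CPM against 20.3, 7.37, 9.13 and 7.93 CPM and passed in neither fit.

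Rps6, the substrate of S6 kinase and the usual readout of mTOR signalling at the protein level, had 27, 22, 20 and 19 counts with pyraclostrobin and 21, 21, 45 and 32 counts with vehicle, in libraries of unequal depth. Its log2 fold change was 0.40 ± 0.25 (SE, adjusted p = 0.247 by edgeR), and 0.48 ± 0.26 without vehicle library A (adjusted p = 0.154), so it passed in neither fit. Rpl3 had 9 to 16 and 8 to 25 counts and did not pass either. Rpl10, the subunit that joins the large subunit last, and Rps27a, which is made as a fusion with ubiquitin, were under the filter with 5 to 25 and 1 to 9 counts.

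Rpl5 and Rpl11 bind the 5S rRNA and, when free of ribosomes, the p53 regulator Mdm2. Rpl5 was at 60.1, 53.1, 54.1 and 48.7 CPM with pyraclostrobin and at 113, 72.2, 62.8 and 61.9 CPM with vehicle. All 4 treated libraries were below all 4 vehicle libraries, with a log2 fold change of −0.51 ± 0.20 (SE, adjusted p = 0.066 by edgeR). Without vehicle library A it was −0.27 ± 0.11 (adjusted p = 0.070), so Rpl5 passed in neither fit. Rpl11 was under the filter with 2 to 15 counts. Rpl15, of the large subunit, lay at 157, 159, 127 and 158 CPM with pyraclostrobin and at 270, 196, 194 and 184 CPM with vehicle, again without overlap. Its log2 fold change was −0.49 ± 0.15 (SE, adjusted p = 0.024 by edgeR, 0.0076 by DESeq2), and −0.35 ± 0.10 without vehicle library A (adjusted p = 0.015). Rpl15 was the only member that was lower by DESeq2 and the only one lower without both libraries A (adjusted p = 0.0013 by edgeR). All coding stretches of both genes have copies in the genome.

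Among the pairs of paralogues, Rpl22 was at 213, 200, 221 and 215 CPM with pyraclostrobin and at 194, 165, 159 and 145 CPM with vehicle, without overlap (log2 fold change 0.36 ± 0.12 (SE), adjusted p = 0.033 by edgeR). Its paralogue Rpl22l1 was at 4.72 to 6.81 CPM against 6.75, 2.72, 1.75 and 2.54 CPM. Both were called without vehicle library A, Rpl22 at 0.44 and Rpl22l1 at 1.34 (adjusted p = 0.0019 and 0.0032 by edgeR). Rpl7 was not called in the full set and rose in that fit by 0.94 on the log2 scale (adjusted p = 0.00079 by edgeR). Rps27l, known as a p53 target, had 17, 7, 7 and 8 counts with pyraclostrobin and 7, 2, 5 and 2 with vehicle, below the filter, and Rps27 had 2 to 10 counts in either group. Rpl36al and Rpl39 were tested and did not pass in either fit, and Rpl36a was under the filter with 1 to 7 counts. Rps19bp1, which binds Rps19 and SIRT1, was at 25.4 to 34 CPM against 49, 32.2, 27 and 31.7 CPM, with a log2 fold change of −0.28 ± 0.20 (SE, adjusted p = 0.322 by edgeR) that was −0.08 ± 0.15 without vehicle library A (adjusted p = 0.705).

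**Figure D2:**
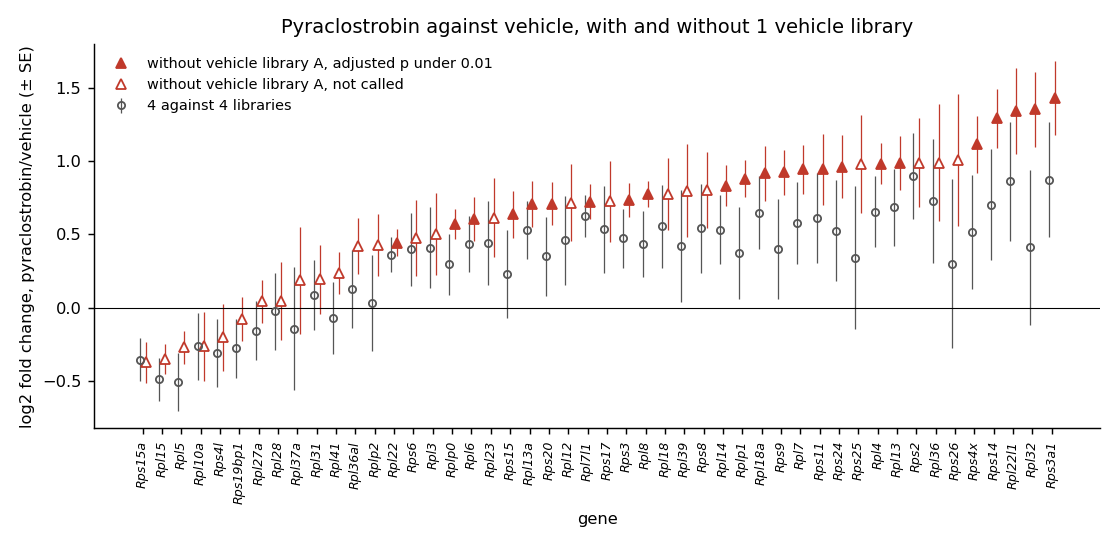
Log2 fold change of pyraclostrobin over vehicle with its SE for 48 of the 49 members tested in both fits. Open circles use 4 libraries of each group, triangles leave out vehicle library A and are filled where the adjusted p was under 0.01. The triangles of 23 members are filled, all above 0, while Rpl15, Rpl5 and Rps15a are among the members below 0 in both fits.

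The 24 members called without vehicle library A had log2 fold changes of 0.45 to 1.43 (lowest and highest), with the largest for Rps3a1 at 1.43, Rpl32 at 1.35, Rpl22l1 at 1.34, Rps14 at 1.29 and Rps4x, the X-linked form of S4, at 1.12. Rps3a1 was at 20.7, 14.6, 14.4 and 13 CPM with pyraclostrobin and at 7.76, 5.77 and 4.64 CPM in those 3 vehicle libraries, and vehicle library A at 18.1 CPM lay inside the treated range. Rpl32 was at 17.9, 15.3, 11.4 and 12.2 CPM against 7.37, 5.64 and 4.34 CPM, with vehicle library A above all of them at 28.4 CPM. In 31 of the 53 members all 4 treated libraries were above those 3 vehicle libraries, against 25.9% of all tested genes. In 3 they were below, against 26.3%. Vehicle library A was set aside for its high values in the members, which favoured the 31 in advance. With it kept, 3 members were higher without overlap, against 18.1% of all tested genes.

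Other genes of the translation machinery were counted from lists. For these and the marker lists below, the background was 12.1% of all tested genes higher and 9.22% lower. Without vehicle library A it was 17.6% and 15.7%. Of 25 tested translation factors and other TOP mRNAs, 3 were higher and 0 lower in the full set, and 15 were higher without vehicle library A. The 3 were the intermediate filament Vim (log2 fold change 2.58), the initiation factor Eif4b (0.56) and the poly(A)-binding protein Pabpc1 (0.55). Of 45 ribosome biogenesis factors 4 were higher and 0 lower, led by the nucleolar proteins Gnl3 at 0.96 and Ddx21 at 0.82. Of 70 mitochondrial ribosomal proteins 1 was higher, Mrps28 at 1.56, and 1 lower, Mrpl41 at −0.67. Of 21 genes of mTOR control 2 were higher and 0 lower, the translation repressor Eif4ebp1 at 2.36 and the mTOR inhibitor Sesn2 at 1.80. These 4 lists had medians of 0.35, 0.25, −0.04 and −0.04, beside 0.41 for the ribosomal proteins. Without vehicle library A, 8 biogenesis factors were higher and 1 lower, 7 mitochondrial ribosomal proteins higher and 2 lower, and 3 mTOR genes higher and 1 lower. Their shares higher were 17.8%, 10% and 14.3%, beside 17.6% of all tested genes.

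Marker genes of cell types moved with the same contrast. Of 10 neuron markers 8 were lower and 0 higher, and their summed level, here per library total without further scaling, was 4066 to 5261 CPM with pyraclostrobin and 8913 to 9448 CPM with vehicle. Astrocyte markers summed to 4465 CPM in pyraclostrobin library A and to 1340 to 1564 CPM in the other 3, and to 1576 CPM in vehicle library A and 770 to 824 CPM in the other 3. Both libraries A were thus the highest of their group. Of 9 astrocyte markers tested 2 were higher, and 7 were without vehicle library A, the fit in which 24 members were called. Microglia markers summed to 106 to 191 CPM against 28.3 to 41.8 CPM, with all 8 tested higher. Endothelial and mural markers summed to 1127 to 1577 CPM against 71.1 to 156 CPM, with all 4 tested of 10 listed higher. Most of that sum was from 2 contractile genes, Acta2 at 592 to 826 CPM and Tagln at 503 to 716 CPM with pyraclostrobin. The endothelial marker Cldn5 was at 0 in all 8 libraries. Oligodendrocyte lineage markers summed to 229 to 361 CPM against 112 to 220 CPM, with 2 of 7 higher and 1 lower, and 4 of 6 higher and 1 lower without vehicle library A. The part of these cells in the ribosomal protein values was not tested, and in bulk RNA fewer cells of a type and less RNA per cell cannot be told apart. For fenamidone, another complex III inhibitor, the paper reports that counts of stained neurons, astrocytes and microglia did not differ significantly from vehicle. It gives no such count for pyraclostrobin.

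The screen gives log2 deviations from a gene's median after the authors' normalization and removal of batch effects, and no levels. The vehicle libraries show how far each member varied without a chemical, by culture, remaining batch effects and counting error together. The SD over the 49 vehicle libraries had a median of 0.43 over the 73 members, against 0.25 over all genes, and was above the latter in 57 members. It was smallest in Rpl22 at 0.11 and Rpl4 at 0.13, and Rpl15 and Rpl13a were at 0.16. It was largest in Rpl22l1 at 1.68, Rps21 at 1.26, Rps27rt at 1.24, Rpl34 at 1.22 and Rpl19 at 1.00. Rpl22 thus ranged from −0.27 to 0.28 in vehicle cultures and its paralogue Rpl22l1 from −4.52 to 3.24. Across the 73 members the rank correlation of this SD with the mean CPM in the count table was −0.91, and with the share of copied stretches 0.37 over 69 members. Rps14, at 23.5 CPM, had an SD of 0.75, where Rpl7, at 19.9 CPM, had 0.40.

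**Figure D3:**
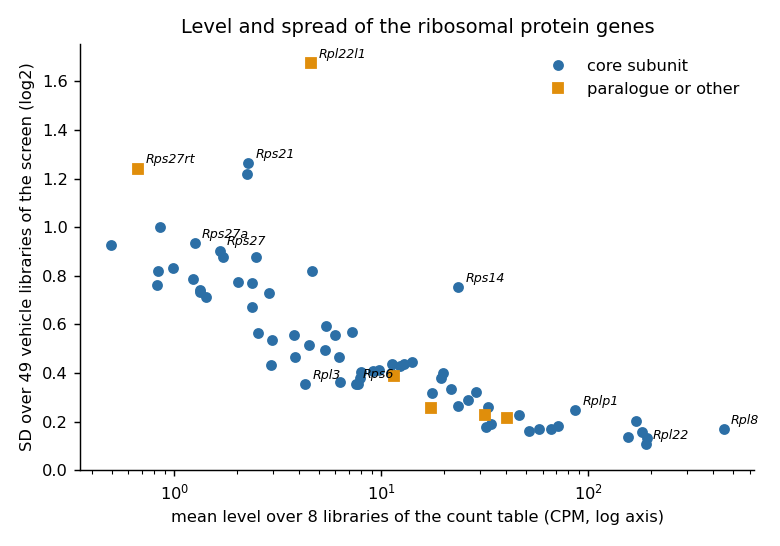
SD over the 49 vehicle libraries of the screen (log2) against the mean level over the 8 libraries of the count table (CPM, log axis), 1 point for each of the 73 members. The SD falls from over 1 for members at a few CPM to between 0.11 and 0.25 for members above 50 CPM.

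Topotecan, an inhibitor of topoisomerase 1 that served as a positive control, was the only chemical with many libraries. Against vehicle, 28 of the 73 members were higher and 0 lower at an adjusted p of 0.05 (limma, Benjamini-Hochberg over 13304 genes), where the background was 24.9% of all genes higher and 20.9% lower. The members' share called higher was 38.4%. Of the 28, 11 were named Rps and 17 Rpl. At an unadjusted p under 0.05, where the share of all genes was not taken, there were 34 members. At an adjusted p of 0.01, 15 members were higher and 0 lower, against 17.7% and 17.4% of all genes. Estimates were above 0 in 64 members, with a median log2 difference of 0.15 against 0.03 over all genes.

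Among called members the largest rises were of Rps27a at 0.57 ± 0.19 (SE), Rps21 at 0.56 ± 0.24, Rps27 at 0.55 ± 0.18, Rpl12, at the base of the stalk, at 0.46 ± 0.07, and Rpl36 at 0.42 ± 0.11 on the log2 scale (adjusted p = 0.011, 0.048, 0.0077, 2.1e-07 and 0.00053 by limma). Rps27rt had a larger estimate, 0.58, and was not called (adjusted p = 0.052). The first 3 are among the members that varied most in vehicle cultures. Rps27 ranged from −4.63 through a median of −0.10 to 0.81 with vehicle, and from −0.71 through 0.21 to 1.72 with topotecan. Rpl12 ranged from −0.77 through −0.03 to 0.76 and from −0.27 through 0.44 to 0.84, and 29 of 32 topotecan libraries were above the vehicle median. All of these ranges overlapped.

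Measured in SDs of the vehicle libraries, the largest shifts were of Rpl4 at 1.40, Rpl12 at 1.28, Rplp0 at 1.22, and Rpl3 and Rps15a at 1.14. Rpl4 ranged from −0.33 through −0.04 to 0.21 with vehicle and from −0.16 through 0.14 to 0.35 with topotecan. Its difference was 0.19 ± 0.03 (SE), and 31 of 32 topotecan libraries were above the vehicle median. Rplp0 rose by 0.22 ± 0.04, Rps3 by 0.20 ± 0.04 and Rpl3 by 0.40 ± 0.08 (SE), with 27, 27 and 28 libraries above that median. In permutation tests over samples with 100000 resamples, two-sided and adjusted over 23 members, 13 were under 0.05. Among the 23 were the largest rises that limma called in the same libraries, Rps27a, Rps21, Rps27, Rpl12 and Rpl36. All of these are counted in the 13. Their small permutation p followed in part from that choice, so it is a description and not an independent test. The adjustment did not cover members outside the 23. Rpl12, Rpl3 and Rps3 had the smallest p that the resamples can give (permutation p = 2e-05, adjusted 0.00015), and Rplp0 had a permutation p of 4e-05 (adjusted 0.00023). Rpl4 was not among the 23.

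Not all members followed. Rps6 differed by 0.03 ± 0.08 (SE, adjusted p = 0.78 by limma), and its libraries ranged from −0.83 through 0.00 to 1.00 with vehicle and from −0.61 through −0.01 to 0.63 with topotecan. Rpl22 differed by 0.05 ± 0.02 and Rpl8 by 0.05 ± 0.03 (adjusted p = 0.13 and 0.21), with vehicle SDs of 0.11 and 0.17. Rpl22l1 differed by −0.15 ± 0.35, Rpl10 by 0.03 ± 0.11 and Rps19bp1 by 0.00 ± 0.05. Of the 5S partners, Rpl5 rose by 0.10 ± 0.04 (adjusted p = 0.011) and Rpl11 differed by 0.33 ± 0.15 (adjusted p = 0.066), so the larger estimate was the one that failed the test. Of the stalk, Rplp1 and Rplp2 differed by 0.11 and 0.14 and did not pass. Among paralogue pairs Rpl36al passed at 0.15 and Rpl36a did not at −0.05, Rpl7 passed at 0.24 and Rpl7l1 did not at 0.06, and the differences within pairs were not tested. Rpl39 rose by 0.38 ± 0.11.

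**Figure D4:**
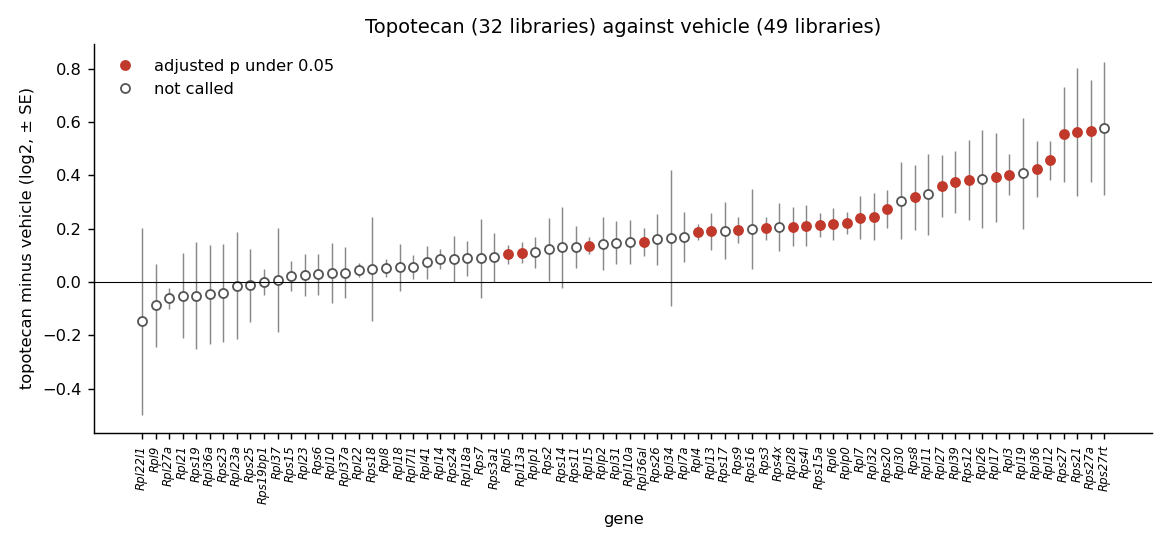
Topotecan minus vehicle (log2, bars are SE) for 72 of the 73 members in order of the difference, over 32 and 49 libraries. Filled points passed an adjusted p of 0.05. The 27 filled points lie between 0.10 and 0.57, and the members below 0 are all open.

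Of the other lists, 11 of 27 translation factors and TOP mRNAs rose with topotecan and 0 fell, led by Gas5, a non-coding TOP transcript, at 0.42. Of 46 ribosome biogenesis factors 21 rose and 0 fell, with the GTPase Lsg1 at 0.37 and the helicase Ddx21 at 0.36. Of 73 mitochondrial ribosomal proteins 17 rose and 2 fell. Of 22 mTOR genes 4 rose and 3 fell, with Rptor, the scaffold of mTOR complex 1, at −0.43. In this order the shares that rose were 40.7%, 45.7%, 23.3% and 18.2%. The background for these and the marker lists was 24.9% of all genes higher and 20.9% lower. Of 10 neuron markers 8 fell and 1 rose, and of 9 astrocyte markers 5 fell and 1 rose. Of 5 microglia markers and of 5 endothelial and mural markers 1 fell each, and of 7 oligodendrocyte lineage markers 3 rose and 1 fell. The part of cell composition in the members' values was not tested.

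Inhibitors of the respiratory chain were grouped by their known target to ask whether members move with that target. There were 4 inhibitors of complex I (fenpyroximate, pyridaben, rotenone and tebufenpyrad) and 6 of complex III (azoxystrobin, famoxadone, fenamidone, fluoxastrobin, pyraclostrobin and trifloxystrobin, taken as inhibitors of its outer quinone site), at doses that differed, and each chemical entered as the median of its libraries against all other chemicals. Bifenazate and cyazofamid, also assigned to complex III, and the complex II inhibitors boscalid, carboxin and flutolanil were among the other chemicals. The paper reports that azoxystrobin and fluoxastrobin produced no superoxide at the dose sequenced. It did not place them in the expression cluster that held pyraclostrobin. Whether each chemical blocked its target at its dose was not tested here. Of the 73 members 0 were higher and 2 lower, Rpl5 and Rpl15 (limma, adjusted p of 0.05 over 13304 genes), against a background of 9.8% higher and 16.5% lower. At an unadjusted p under 0.05, where the share of all genes was not taken, there were 5 members. The median over the members was −0.03.

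Rpl5 was at 0.00 with azoxystrobin, −0.30 with famoxadone, −0.38 with fenamidone, −0.12 with fluoxastrobin, −0.24 with pyraclostrobin and −0.22 with trifloxystrobin. With the complex I inhibitors it was at −0.61 with fenpyroximate, −0.25 with pyridaben, −0.02 with rotenone and −0.14 with tebufenpyrad. So 9 of the 10 lay below 0, and the mean was −0.23 against −0.02 for other chemicals. The difference was −0.20 ± 0.05 (SE, adjusted p = 0.00056 by limma). With single libraries of the inhibitors against vehicle libraries it was −0.22 (adjusted p = 0.0016 by limma). In that fit azoxystrobin, famoxadone, fenamidone and rotenone entered with 2 libraries each, treated as separate, so its p is not over chemicals.

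Rpl15 was at 0.01, −0.14, −0.32, 0.02, −0.28 and −0.26 with the complex III inhibitors in the order above, and at −0.32, −0.03, −0.04 and −0.04 with those of complex I. Its difference was −0.11 ± 0.04 (SE, adjusted p = 0.026 by limma). The call was lost in the fit of single libraries against vehicle (−0.12, adjusted p = 0.052 by limma). It was lost with complex I inhibitors alone (−0.08, adjusted p = 0.62 by limma). It was also lost when fenpyroximate, fenamidone, pyraclostrobin or trifloxystrobin was left out. With bifenazate and cyazofamid added to the group Rpl15 lost its call too (−0.07), where Rpl5 kept its call (−0.16). In the count table, too, all 4 pyraclostrobin libraries lay below all 4 vehicle libraries for both genes. The same held for Rps15a, and 17% of all tested genes were lower without overlap. In the screen Rps15a differed by −0.18 ± 0.08 (SE) between the inhibitors and other chemicals and was not called (adjusted p = 0.061 by limma). The pyraclostrobin library of the screen is 1 of the 4 in the count table, so the 2 results share a library. Rpl5 and Rpl15 also varied together over the 312 libraries of chemicals other than topotecan (rho = 0.47). These libraries include those of the inhibitors themselves.

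Rps6 lay between −0.11 and 0.40 with the 10 inhibitors and did not pass (0.19 ± 0.12 (SE), adjusted p = 0.25 by limma). In the fit of single libraries against vehicle, 3 members were higher and 3 were lower. Among the higher were Rpl22 at 0.13 and Rpl4 at 0.12 (adjusted p = 0.0023 and 0.019 by limma). The share of all genes called in that comparison was not taken, so these counts have no background. Against other chemicals Rpl22 and Rpl4 differed by 0.06 and 0.08 and did not pass. Of the other lists, 1 translation factor or TOP mRNA rose and 1 fell, as did 1 ribosome biogenesis factor each way. For mitochondrial ribosomal proteins 2 rose and 0 fell, and for mTOR genes 2 rose and 1 fell. These shares all lay below the background of 9.8% of all genes higher and 16.5% lower. All 10 neuron markers fell and 5 of 9 astrocyte markers rose, 3 of 5 endothelial and mural markers rose, 1 of 7 oligodendrocyte lineage markers rose and 1 fell, and 0 of 5 microglia markers passed. Their part in the values of Rpl5 and Rpl15 was not tested.

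For each library of the screen the median over the 73 members was taken as a description of the group as a whole. It ranged from −0.27 through 0.00 to 0.20 over the vehicle libraries (SD 0.10, n = 49), from −0.16 through 0.12 to 0.36 with topotecan (SD 0.09, n = 32), and from −0.35 through −0.02 to 0.32 over the other 312 libraries (SD 0.10). With topotecan 30 of 32 libraries were above the vehicle median and 3 above the highest vehicle library. Of the other libraries 10 were above and 3 below the vehicle range. The pooled SD between libraries of the same chemical was 0.078 (14 chemicals other than topotecan, 16 degrees of freedom), beside 0.103 between the 282 chemicals with 1 library.

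**Figure D5:**
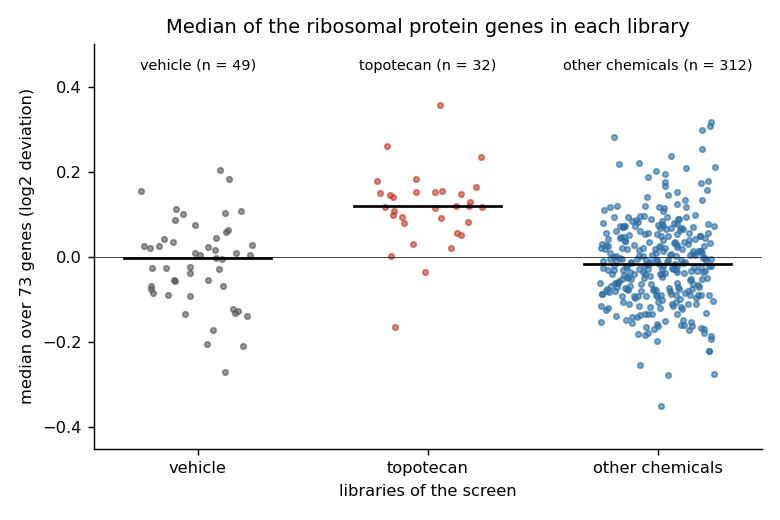
Median over the 73 members (log2 deviation) in each library of the screen, with a line at the median of each group. The topotecan libraries centre on 0.12, the vehicle libraries on 0.00 and those of other chemicals on −0.02, and the 3 clouds overlap.

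The highest medians were of the herbicide metsulfuron at 0.32, spirodiclofen at 0.31, thiophanate at 0.30, fentin at 0.28 and fosthiazate at 0.25. The lowest were of benomyl at −0.35, thiabendazole at −0.28, MCPA at −0.28, S-bioallethrin at −0.25 and triclopyr at −0.22. Fentin was used at 0.01 μM and the other 9 at 10 μM. Each had 1 library, so these values have no replicate check. The benzimidazole fungicides benomyl and thiabendazole were at the low end, while thiophanate, which belongs to the same group of antitubulin fungicides, was near the high end. Clopyralid, with 2 libraries, gave −0.06 and 0.22, values on both sides of the vehicle median.

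Single members outside the vehicle range were counted in each library. Over the 312 libraries 4.43% of the members' values lay outside, and 4.99% of all genes' values. The median was 3 members per library, and 28 libraries had 0. Spirodiclofen had the most, 21 above and 1 below, where 5.95% of all genes were above and 6.38% below. EPTC had 13 above and 1 below and metsulfuron 12 above and 0 below, with 4.07% and 6.81% of all genes above. Benomyl, with the lowest median, had 5 below and 0 above, where 1.23% of all genes were below.

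The members varied together only weakly. Over the 312 libraries the median rank correlation between 2 members was 0.04 (2628 pairs, 5th to 95th percentile −0.08 to 0.24), against 0.00 between a member and any other gene. It was 0.05 over the 49 vehicle libraries. Members closest to the group's median were Rplp1 (rho = 0.59), Rpl4 (0.56), Rps20 (0.54) and Rps3 (0.53), while Rps27a, Rps27rt, Rpl21, Rpl23a and Rps16 were between −0.05 and 0.04. Beside Rps27 with Rps27rt, the closest pairs were Rplp0 with Rplp1 of the stalk (0.51) and Rplp1 with Rpl41 (0.51). Genes outside the members whose values were most like the group's median were Gnb2l1 (0.605), the ribosome-bound scaffold RACK1, then Akr1a1 (0.51), Atp5g3 (0.51), Uchl1 (0.51), Ndufb9 (0.51), Tcp1 (0.50), Cox4i1 (0.50), Mdh2 (0.49), Cct5 (0.49) and Ftl1 (0.49), over 312 libraries that share the authors' normalization. With topotecan, Gnb2l1 rose by 0.13, Cct5 by 0.16 and Tcp1 by 0.07 (adjusted p = 0.00071, 2e-06 and 0.033 by limma), and the other 7 did not pass.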

How the data were processed

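Polyadenylated RNA of mouse cortical cultures was measured by paired-end sequencing. The sources name TagDust for read filtering and TopHat, with no settings changed, for alignment to mm9, and reads from ribosomal RNA were left out. The count values for pyraclostrobin were deposited by the authors as raw counts over RefSeq exons by gene symbol. The screen was deposited by the authors as log10 values. These began as RPKM of genes above a minimal length and detected in most samples, and were then quantile-normalised, set relative to the gene median and corrected for culture and sequencing batch in a mixed model. Its depth is therefore unknown, batches cannot be compared from the deposited values, and differences are given here as log2 (log10 values converted).

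Libraries were grouped by their labels or, in the count table, by column names that show the group, and are lettered A to D by the number in these names. The labels do not say whether libraries of 1 group came from separate cultures, and the study gives fewer biological replicates than libraries for pyraclostrobin without saying which libraries share one. The p-values therefore measure the spread between libraries, which may in part be technical. Another 6 columns of counts, for sulforaphane with fenamidone, carry 1 shared name, could not be matched to samples and were not used. Library totals were 2409623 to 7833440 counts, and at the smallest total 1 count is 0.415 CPM, so members at a few CPM rest on few counts.

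Counts were tested in R 4.3.3 with edgeR 4.0.16 (TMM, at least 10 counts in at least 4 libraries, quasi-likelihood test, adjusted p of 0.01). The screen was tested with limma 3.58.1 (trend, adjusted p of 0.05). All tests were two-sided with Benjamini-Hochberg adjustment over all genes tested, and SEs came from the fits. DESeq2 1.42.0 and the settings given in the closing section were alternatives, and scripts were tested on simulated data. Other steps ran in scipy 1.17.1 and pandas 2.3.3 under Python 3.11.15. Levels per kb used the transcript with the longest coding sequence in GENCODE M1, while the authors used RefSeq models. The study calls its vehicle controls matched, but no source ties the number in the column names to a culture or batch, and same-numbered libraries did not all deviate together, so the fit had no block; the fit with one is in the closing section.

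The members, gene lists and marker lists were chosen with earlier results of these data known. Members named in the text were given by role (stalk, 5S partners, S6 kinase substrate, central subunits, paralogue pairs), and further by the 5 largest rises and falls among members called, the 5 largest and smallest SDs over vehicle libraries, the 5 highest and lowest chemicals and the 10 most alike other genes. Rpl8, Rpl21, Rpl38, Rps2, Rps14, Rps15a, Rps20, Rpl41, Rpl23a, Rps16 and the largest rises without vehicle library A were named after their values were seen, as were EPTC and clopyralid. Values of 1 member that enters the counts and medians are not reported here.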

Additional observations from a re-analysis of the deposited data

Results flagged for a closer look

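Groups of 4 or 6 values were searched for 1 value far from the others with Dixon's ratio (critical value 0.829 for 4 and 0.625 for 6). Chance flags about 1 in 20 groups, and 18 of 95 were found, 13 of them in vehicle library A. In that library the members' share of counts was 0.306%, against 0.154% to 0.168% in the other 3 vehicle libraries. The levels there were 628 CPM for Rpl8, 270.0 CPM for Rpl15, 214 CPM for Rps3, 144 CPM for Rplp1, 99.8 CPM for Rplp0, 37.3 CPM for Rps14, 28.4 CPM for Rpl32, 28.1 CPM for Rpl7, 26.6 CPM for Rpl36al, 24.9 CPM for Rps4x, 20.3 CPM for Rplp2 and 4.26 CPM for Rps21, each the highest of its group. Its astrocyte markers summed to 1576 CPM against 770 to 824 CPM in the other vehicle libraries. Those of pyraclostrobin library A summed to 4465 CPM against 1340 to 1564 CPM in the other pyraclostrobin libraries, and their part in these values was not tested.

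In the pyraclostrobin group Rpl15 was low in library C at 127 CPM, and Rps3 was high in library A at 234 CPM. Among the complex I inhibitors of the screen Rpl15 was low with fenpyroximate at −0.32 and Rpl39 low with rotenone at −1.09. Among the complex III inhibitors Rps27a was high with fluoxastrobin at 0.74, where the others lay between −0.48 and −0.12.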

How the results depend on the processing

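For pyraclostrobin the number of members called higher, 1, became 2 with library totals alone, 0 without the filter, 3 at an adjusted p of 0.05, 0 with core subunits only and 25 without both libraries A, an alternative chosen after seeing the data. Leaving out 1 library at a time gave 0 to 24, with 24 only without vehicle library A. The number lower, 0, became 1 with DESeq2, 1 without the filter, 1 at an adjusted p of 0.05 and 1 without both libraries A, and leaving out 1 library kept it at 0. With the replicate block 3 were higher (Rpl7l1, and Rpl4 and Rps3 at adjusted p = 0.0039 and 0.0090 by edgeR) and 0 lower. The deviations of same-numbered libraries correlated at 0.38, 0.10, −0.03 and 0.16 for A to D, and of the pyraclostrobin libraries A alone correlated best with the vehicle library of its own number. With library totals alone the median log2 fold change of all genes moved to 0.15. The comparison of sulforaphane with fenamidone was not run, because its columns could not be matched to samples.

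For topotecan the number higher, 28, became 15 at an adjusted p of 0.01 (background 17.7% higher) and changed by less than 1.5 times under the other alternatives. For the respiratory chain inhibitors the number higher, 0, became 3 for single libraries against vehicle, where the share of all genes was not taken. The number lower, 2, became 0 with complex I inhibitors alone and 1 at an adjusted p of 0.01. It became 1 with bifenazate and cyazofamid in the group (chosen after seeing the data). Without the 5 further inhibitors among the other chemicals it stayed at 2, and it ranged from 1 to 3 when 1 chemical was left out. Rpl5 lost its call only with complex I inhibitors alone (−0.23, adjusted p = 0.059). The medians per group moved by less than 1 SD between libraries. For members named in the text, 759 values under alternatives held 703 with the same call, 16 that lost it, 40 that gained it, 29 of these without vehicle library A or both libraries A, and 0 reversed among called values. The causes were not tested.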
